A study of Mus musculus with 5 samples.

Results

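The 10 genes described here encode parts of the insulin-like growth factor (IGF) and growth hormone axis: the ligand Igf1, its receptor Igf1r, the IGF binding proteins Igfbp2 to Igfbp6, the receptor substrate Irs1, the growth hormone receptor Ghr and the feedback inhibitor Socs2. They were chosen by name, through the gene symbols paired with the array's probes, out of 14654 named genes. They had 15 probes, of which 14 gave a value on all 5 arrays, and all 10 genes were among the 9000 genes measured on every array. Total RNA from mouse spleen was compared on 2-colour microarrays, in which a mutant sample and a reference compete for each probe. Samples labelled S6-/- and numbered 1 and 2 were hybridised on 2 arrays, 1 sample per array. Samples labelled S6-/- RA+/- and numbered 1, 2 and 3 were hybridised on 3 arrays in the same way. S6-/- RA+/- is the Sirt6 knockout that also carries 1 inactive copy of Rela. Both groups thus lack Sirt6, a chromatin-bound deacetylase, and they differ in Rela, the p65 subunit of NF-kB. On every array the mutant RNA carried Cy5, the reference was a pool of wild-type spleens with Cy3, and the dyes were not swapped. The sources used here do not give the age, sex or strain of the mice or the size of the pool. Values are read as log2 of mutant over pool, so that 0 is the level of the pool, 1 is a doubling and -1 a halving. The log base and the direction are taken from the range of the values, the dyes and the custom of the source database, and the deposited table does not state them.

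Growth hormone binds Ghr, a cytokine receptor that acts through JAK2 and STAT5 and induces Igf1, mostly in liver, along with Socs2, which dampens the signal. IGF1 in blood and tissue is carried by IGF binding proteins, which prolong its life, hold it away from Igf1r or release it beside cells. Igf1r is a tyrosine kinase that phosphorylates Irs1 and so feeds the PI3 kinase and AKT pathway. Mice without Sirt6 are known for small size, low blood IGF1 and early death, and SIRT6 has been described as a repressor of NF-kB target genes. The comparisons below ask how the genes of this axis stood in Sirt6 knockout spleen against wild type, and how they differed when 1 copy of Rela was also lost.

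The 250 bases before the transcription start of 3 binding protein genes are shown because each stands for a different pattern over the arrays: Igfbp2 was far below the pool in the knockout, Igfbp6 far below it in the heterozygous group, and Igfbp5 split the heterozygous arrays. The sequences are from RefSeq on build GRCm38.p6, 5′ to 3′ on the strand of the gene. Capitals mark matches to the searched motifs.
Igfbp2 (chr1:72824230-72824479, + strand): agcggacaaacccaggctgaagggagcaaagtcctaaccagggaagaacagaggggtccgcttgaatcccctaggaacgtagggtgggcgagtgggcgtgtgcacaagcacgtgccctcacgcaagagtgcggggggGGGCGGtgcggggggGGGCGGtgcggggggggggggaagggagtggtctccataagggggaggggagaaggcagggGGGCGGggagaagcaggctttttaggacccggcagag
Igfbp5 (chr1:72874866-72875115, - strand): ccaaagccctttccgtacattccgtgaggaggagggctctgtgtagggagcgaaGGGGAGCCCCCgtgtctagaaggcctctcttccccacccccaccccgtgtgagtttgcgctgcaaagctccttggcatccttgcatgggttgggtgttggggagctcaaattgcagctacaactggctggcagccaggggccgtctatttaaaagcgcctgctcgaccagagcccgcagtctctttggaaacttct
Igfbp6 (chr15:102143936-102144185, + strand): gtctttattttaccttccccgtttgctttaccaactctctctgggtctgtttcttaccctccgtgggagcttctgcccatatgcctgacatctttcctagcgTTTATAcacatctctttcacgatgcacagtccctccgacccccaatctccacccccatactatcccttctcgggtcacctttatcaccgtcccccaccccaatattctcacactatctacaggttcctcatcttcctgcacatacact

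The motifs were searched on both strands of the same 250 bases for all 32851 annotated starts. They were the GC box GGGCGG, the TATA box TATAAA, the STAT5 element TTCNNNGAA, the FOXO element GTAAACA and the NF-kB consensus. The Igfbp2 window shown held 3 GC boxes, the farthest beginning 113 bases before the start, and GGGCGG was present in 32.7% of all windows. The window of another annotated Igfbp2 start (chr1:72825137-72825386) held 0 GC boxes and had a GC content of 56.4%. The Igfbp5 window held a run beginning 196 bases before the start, which contains 2 overlapping NF-kB consensus matches, each readable on both strands. That consensus was present in 7.25% of all windows. The Igfbp6 window held TATAAA on the opposite strand, beginning 148 bases before the start, a motif present in 12.4% of windows. Of the 11 windows of the 9 genes with an annotated start in the table, 4 held GGGCGG, 3 held TATAAA, 2 (Igfbp5 and Irs1) held the NF-kB consensus, and 0 held TTCNNNGAA or GTAAACA. TTCNNNGAA and GTAAACA were rare in general, present in 7.02% and 3.17% of all windows, so a count of 0 in 11 windows says little. In the windows shown, the GC content was 67.2% for Igfbp2, 58.8% for Igfbp5 and 49.6% for Igfbp6, against a median of 52.4% over all windows. A match is only a match of letters and does not show that a factor binds there.

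The arrays differed in how far their labels could be checked. The targeted gene Sirt6 had no value on 4 arrays and -4.31 on heterozygous array 2, which leaves the knockout unchecked. Rela read 0.48 and 1.08 in the knockout. It read -0.084 and -0.20 on heterozygous arrays 2 and 3, but 1.15 on the library labelled heterozygous 1, above both knockout arrays. Across genes the knockout arrays correlated at r = 0.82 and the heterozygous arrays at between -0.01 and 0.34. The library labelled heterozygous 1 correlated at 0.39 and 0.59 with the knockout arrays, against 0.34 and 0.21 with heterozygous arrays 2 and 3. Heterozygous array 2 likewise correlated at 0.46 and 0.38 with the knockout arrays, against 0.34 and -0.01 with heterozygous arrays 1 and 3. For heterozygous array 3 and the knockout arrays r was -0.16 and -0.02. All arrays share the pool. The Y-linked gene Kdm5d lay between 2.07 and 2.34 on all 5 arrays, so a difference in sex between mutants and pool cannot be told apart from genotype where the pool is the reference, and the expression of this axis is known to differ between the sexes. The pool counts as 1 control sample whose own spread is not measured. B cell and T cell markers gave values on all arrays for 5 of 6 and 4 of 6 genes, but a ratio to another spleen does not show their level. The number of arrays limits the precision, and p-values cover only the variation among these samples, since the labels do not identify separate animals.

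**Figure D1:**
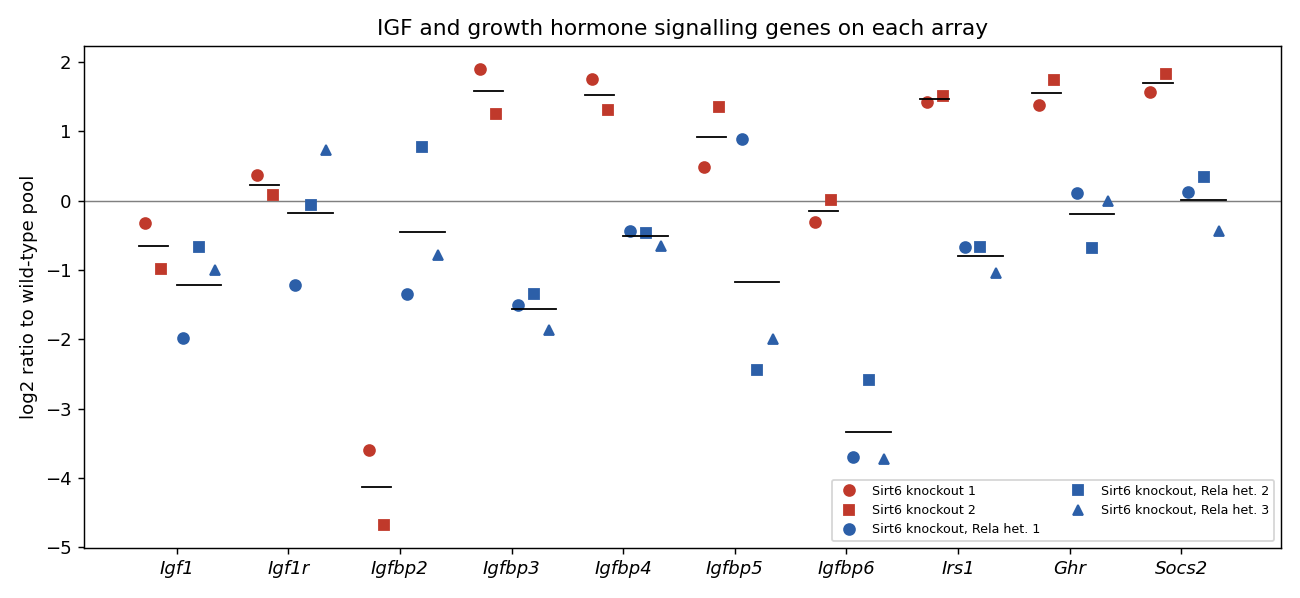
Log2 ratio to the wild-type pool (vertical axis) of the 10 genes (horizontal axis) on each array; red marks are the Sirt6 knockout arrays, blue marks the arrays that are also Rela heterozygous, mark shapes give the replicate number and black lines the group means. Igfbp2 lies at -3.59 and -4.68 on the knockout arrays, and Igfbp6 lies between -3.73 and -2.59 on the heterozygous arrays.

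In the knockout spleens, 7 of the 10 genes had a mean above the pool and 3 below it, where 48.4% of all genes had a mean above it. Both arrays were above it for 7 genes (39.6% of all genes) and both below it for 2, Igf1 and Igfbp2 (41.9% of all genes). The median over the 10 genes was 1.196, against -0.03 over all 9000 genes. Both arrays lay above the pool by more than 1 for Igfbp3, Igfbp4, Irs1, Ghr and Socs2, that is 5 of 10 genes, where 7.37% of all genes did so. Only Igfbp2 among the 10 lay below it by more than 1 on both arrays, where 9.74% of all genes did so. Limma's moderated test with Benjamini-Hochberg adjustment over all genes called 0 of the 10 genes and 0 of the 9000 in this comparison (0% called). At an unadjusted p under 0.05, 5 of the 10 were higher and 1 lower, against 9.82% and 10.6% of all genes.

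In the spleens that were also heterozygous for Rela, most of these genes lay below the pool. For 9 of 10 the mean was below it, and the median was -0.66, against -0.02 over all genes. Of all genes 48.8% had a mean above the pool. All 3 arrays lay below the pool for Igf1, Igfbp3, Igfbp4, Igfbp6 and Irs1, 5 of 10 genes, where 15.1% of all genes did so, and above it for 0, where 16.5% did so. At an unadjusted p under 0.05, 4 of the 10 were lower and 0 higher, against 8.00% and 5.06% of all genes. Limma called 1 of the 10 genes, Igfbp6, and 29 of the 9000 (0.322% called). The heterozygous arrays all lay below both knockout arrays for 6 genes, Igfbp3, Igfbp4, Igfbp6, Irs1, Ghr and Socs2, where 13.8% of all genes did so. They all lay above them for Igfbp2, where 14.4% did so. For Igf1, Igf1r and Igfbp5 the groups overlapped. Without the library labelled heterozygous 1, the first count was 7, with Igfbp5 added, and 23.9% of all genes met the condition. Limma called 0 of the 10 genes and 0 of all genes (0% called) in the difference between the groups, with adjusted p between 0.204 and 0.903 for the 10. At an unadjusted p under 0.05, 6 of the 10 were lower and 1 higher, against 5.34% and 3.48% of all genes. The members were chosen with earlier results of these data known, so their counts are descriptions.

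**Figure D2:**
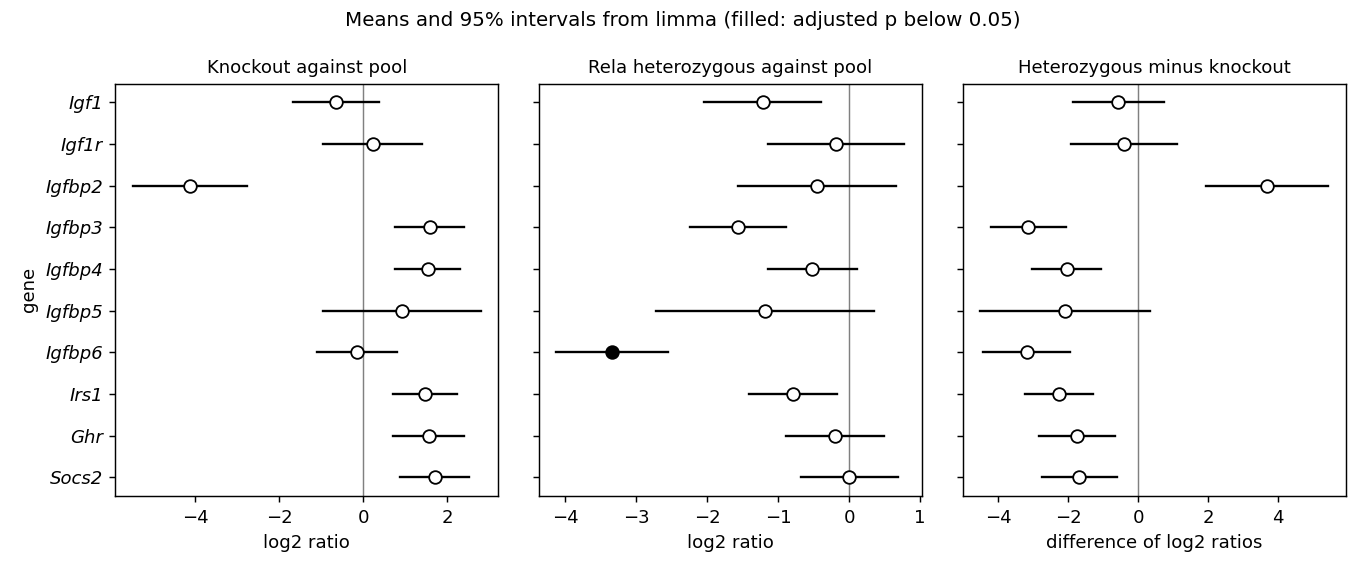
Mean log2 ratio, or difference of log2 ratios, of the 10 genes with limma's 95% confidence interval in the comparisons of the knockout with the pool, of the heterozygous group with the pool and of the heterozygous group with the knockout. The filled point, Igfbp6 in the heterozygous group at -3.34, is the only value past the adjusted threshold; the horizontal axes differ in range.

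Igf1, the ligand, lay on the low side on every array. Its log2 ratios were -0.32 and -0.98 in the knockout and -1.98, -0.67 and -1.0 on heterozygous arrays 1, 2 and 3. The groups overlapped, since heterozygous array 2 lay between the knockout arrays. The mean was -0.65 ± 0.47 (SD, n = 2) in the knockout and -1.22 ± 0.68 (SD, n = 3) in the heterozygous group, which is 0.638 and 0.430 of the pool. Neither passed the threshold (limma adjusted p = 0.412 and 0.293). The difference between the groups was -0.57 with a 95% interval of -1.88 to 0.74 (limma adjusted p = 0.829). With the library labelled heterozygous 1 left out, the difference was -0.19. Both Igf1 probes gave the same picture, with probe 24833 above probe 37239 by 0.35 to 0.56 on every array. The gene lies on chromosome 10 (GRCm38.p6, 87858265 to 87937047).

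Igf1r, the receptor for IGF1, stayed near the pool in the means but was spread widely in the heterozygous group. The knockout arrays read 0.36 and 0.08, and heterozygous arrays 1, 2 and 3 read -1.22, -0.06 and 0.73. The heterozygous arrays lay on both sides of the knockout arrays. The difference was -0.40 with a 95% interval of -1.92 to 1.12 (limma adjusted p = 0.903), so a change of about 1 in either direction was within the error. With the library labelled heterozygous 1 left out its sign turned, to 0.12.

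The binding proteins held the largest departures among the 10 genes. Igfbp2, a binding protein made by liver and many other tissues and known to be high when growth hormone is low, read -3.59 and -4.68 on the knockout arrays. On heterozygous arrays 1, 2 and 3 it read -1.35, 0.78 and -0.79. The knockout arrays thus placed Igfbp2 among the lowest 0.32% and 0.13% of all genes, while 1 heterozygous array lay above the pool. Its mean was -4.13 ± 0.77 (SD, n = 2) in the knockout, or 0.0570 of the pool, the 16th largest departure of 9000 genes, with a limma adjusted p of 0.0912. In the heterozygous group it was -0.45 ± 1.10 (SD, n = 3), which moved to -0.006 without the library labelled heterozygous 1, to -1.07 without heterozygous array 2 and to -0.28 without heterozygous array 3. It was -0.23 after quantile normalization and -0.18 with equal median absolute deviation. The difference of 3.68, a 12.8-fold higher ratio, had a 95% interval of 1.93 to 5.43 and a limma adjusted p of 0.253. A single probe measured Igfbp2. The gene spans chr1:72824480-72852474.

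Igfbp3, the main carrier of IGF1 in blood, was the member with the smallest p in the difference. It read 1.90 and 1.25 in the knockout and -1.50, -1.34 and -1.86 on heterozygous arrays 1, 2 and 3. With the probes averaged, all knockout values lay above the pool and all heterozygous values below it. The means were 1.58 ± 0.46 (SD, n = 2) and -1.57 ± 0.27 (SD, n = 3), or 2.98 and 0.337 of the pool. The difference of -3.15 had a 95% interval of -4.22 to -2.07 (limma adjusted p = 0.204), and at the unadjusted level it was number 7 of 9000 genes. This interval and rank belong to the averaged probes.

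The Igfbp3 probes disagreed in level but not in that difference. Probe 2785 read 2.41 and 2.43 on the knockout arrays, where probe 21759 read 1.40 and 0.07. On the library labelled heterozygous 1 they read 0.22 and -3.22, a gap of 3.44. Among 1900 genes with 2 probes measured on all arrays, the largest gap of a gene had a median of 1.44 and exceeded 3 for 14.7%. The difference between the groups was -3.08 by probe 2785 and -3.21 by probe 21759. With each probe fitted on its own, the limma adjusted p was 0.378 and 0.419. The heterozygous SDs of the probes were 0.77 and 0.82, against 0.27 for their average. By probe 2785 alone, the heterozygous group lay at -0.67 against the pool rather than at -1.57, and by probe 21759 at -2.47, while the knockout means were 2.42 and 0.74.

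Igfbp4, a binding protein that inhibits IGF action until it is cleaved by the protease PAPP-A, also had all knockout values above and all heterozygous values below the pool. It read 1.75 and 1.31 in the knockout, then -0.44, -0.46 and -0.65 on heterozygous arrays 1, 2 and 3. The heterozygous values lay within 0.21 of each other, the tightest of the 10 genes by SD (0.12). The difference of -2.05 had a 95% interval of -3.04 to -1.06 (limma adjusted p = 0.257), and both probes gave it, at -2.04 and -2.05. On the library labelled heterozygous 1, however, the probes fell on either side of the pool, at 0.14 and -1.02.

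Igfbp5, a binding protein deposited in the extracellular matrix, split the heterozygous arrays. It read 0.49 and 1.36 in the knockout, 0.89 on heterozygous array 1, and -2.44 and -1.997 on heterozygous arrays 2 and 3. Heterozygous array 1 therefore lay between the knockout arrays, and the other heterozygous arrays lay more than 2 units below the lower knockout array. The probes differed by at most 0.37 on any array, the smallest largest gap of the 4 genes with a probe pair. The difference was -2.10 with a 95% interval of -4.52 to 0.32 (limma adjusted p = 0.614). Leaving out the library labelled heterozygous 1 gave -3.14 (limma adjusted p = 0.179), and the heterozygous mean moved from -1.18 to -2.22. On that library Rela was also above both knockout arrays, and its part in the split was not tested.

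**Figure D3:**
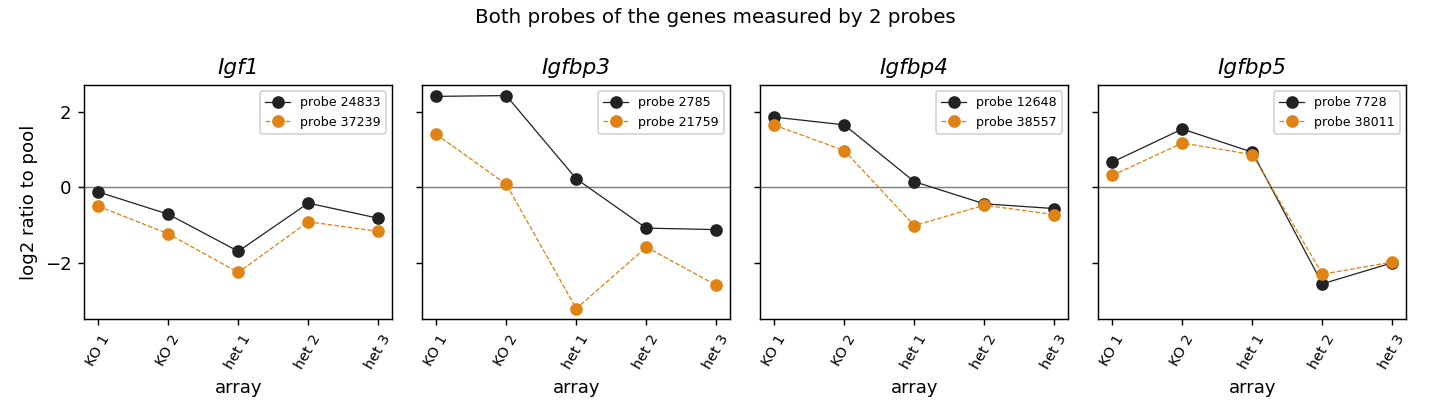
Log2 ratio to the pool (vertical axis) on each array (horizontal axis) for both probes of Igf1, Igfbp3, Igfbp4 and Igfbp5; thin lines only join the values of a probe. The Igfbp5 probes lie within 0.37 of each other, while the Igfbp3 probes lie 3.44 apart on heterozygous array 1.

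Igfbp6, a binding protein that prefers IGF2 to IGF1, fell in the heterozygous group and was the only gene of the 10 past the threshold. It read -0.31 and 0.01 on the knockout arrays, at the level of the pool. On heterozygous arrays 1, 2 and 3 it read -3.69, -2.59 and -3.73. All 3 heterozygous values were thus more than 2 units below both knockout values, and on each of these arrays Igfbp6 was at or below the 1.00 percentile of all genes. The heterozygous mean was -3.34 ± 0.65 (SD, n = 3), or 0.0990 of the pool, with a 95% interval of -4.12 to -2.55 and a limma adjusted p of 0.0485. The difference from the knockout was -3.19, with a 95% interval of -4.43 to -1.95 (limma adjusted p = 0.220). The call lies close to the threshold: leaving out any 1 array ended it, with means of -3.71 to -3.14 and limma adjusted p between 0.0676 and 0.144. A single probe measured Igfbp6, whose gene spans chr15:102144186-102149512.

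Irs1, which links the receptor to PI3 kinase, had the closest knockout values of the 10 genes. It read 1.43 and 1.52 in the knockout and -0.67, -0.66 and -1.05 on heterozygous arrays 1, 2 and 3. The groups lay on opposite sides of the pool. The means were 1.47 ± 0.064 (SD, n = 2) and -0.79 ± 0.22 (SD, n = 3), and the difference was -2.27 with a 95% interval of -3.25 to -1.28 (limma adjusted p = 0.220). The second Irs1 probe, 7971, had no value on any array. With the probes of a gene averaged, 3 members had both knockout arrays above and all heterozygous arrays below the pool: Igfbp3, Igfbp4 and Irs1. Of all genes 3.24% met that condition. The reverse order held for 0 members and 2.12% of all genes. By single probes the condition did not hold throughout. On heterozygous array 1, Igfbp3 probe 2785 read 0.22 and Igfbp4 probe 12648 read 0.14, both above the pool.

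On the growth hormone side the receptor and the inhibitor gave like values in the knockout, but fell on either side of the pool on heterozygous array 2. Ghr read 1.37 and 1.74 in the knockout and 0.11, -0.69 and -0.01 on heterozygous arrays 1, 2 and 3. Socs2 read 1.57 and 1.82 in the knockout and 0.12, 0.33 and -0.44 on heterozygous arrays 1, 2 and 3. In both genes the knockout arrays lay about 3-fold above the pool (2.94 and 3.24 of it) and the heterozygous arrays lay around it. The difference was -1.75 for Ghr, with a 95% interval of -2.85 to -0.66, and -1.69 for Socs2, with one of -2.76 to -0.62. Each had a limma adjusted p of 0.358. On the knockout arrays both genes were between the 94.8 and 96.7 percentiles of all genes.

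The wider axis was read from a longer list. Of 78 further genes listed, from ligands and proteases to JAK, STAT, PI3 kinase and mTOR components, 63 were on the array and 49 were measured on all arrays. In the knockout 33 lay above and 16 below the pool, with a median of 0.42, where 48.4% of all genes lay above. In the heterozygous group 29 lay above and 20 below, with a median of 0.19, where 48.8% of all genes lay above. In the difference 30 were lower and 19 higher, with a median of -0.10, against -1.90 for the 10 members and 0.03 over all genes. Of all genes 48.5% were lower in the difference. Limma called 0 of the 49 in each comparison, against 0%, 0.322% and 0% of all genes, so a count of 0 says little. At an unadjusted p under 0.05 it gave 8 higher and 3 lower in the knockout, 6 higher and 3 lower in the heterozygous group, and 1 higher and 3 lower in the difference. The shares of all genes were 9.82% and 10.6%, 5.06% and 8.00%, and 3.48% and 5.34%, in the same order. The heterozygous arrays lay below both knockout arrays for 5 of the 49 and above them for 5, against 13.8% and 14.4% of all genes.

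The listed genes of largest absolute t are given next, with the inhibitors and carriers of growth hormone signalling first. Socs3, a cytokine-induced inhibitor of JAK signalling, read 1.60 and 2.86 in the knockout and 2.03, 2.19 and 0.86 on heterozygous arrays 1, 2 and 3. Cish, a STAT5 target of the same family, read 0.95 and 1.86, then 1.52, 0.13 and 2.83. Stat5b, which carries the growth hormone signal to the nucleus, read 0.66 and 1.23, then 1.46, 0.86 and 0.51. All 5 values of each of these 3 genes were above the pool and the groups overlapped, while the kinase gene Jak2 was below the pool in the mean of both groups, at -0.56 and -0.58 (a gene named after its values were seen). The limma adjusted p of Socs3, Cish and Stat5b against the pool was between 0.108 and 0.370 where they were among the 6 listed genes of largest absolute t.

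Igf2, the fetal growth factor, read 1.94 and 2.28 on the knockout arrays, 2.32 on the library labelled heterozygous 1, and 0.06 and 0.37 on heterozygous arrays 2 and 3. This is the same split of the heterozygous arrays as for Igfbp5. In the knockout its mean of 2.11 had a limma adjusted p of 0.129. Klf9, a hormone-responsive transcription factor gene, read 2.68 and 2.71 in the knockout and -0.64, 0.23 and -0.27 in the heterozygous group. Its difference of -2.93 ± 0.45 (SE, n = 3 and 2) had a limma adjusted p of 0.213, the smallest of the 49. Igf2bp3, an RNA-binding protein that binds Igf2 mRNA, read 0.70 and 0.30 in the knockout and -1.16, -1.57 and -2.79 in the heterozygous group, with a difference of -2.34 (limma adjusted p = 0.354). The adaptor Grb7 went the other way, with -3.05 and -1.53 in the knockout and 1.58, 0.17 and -0.49 in the heterozygous group, a difference of 2.71 (limma adjusted p = 0.388). None of these passed the threshold in a comparison.

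Among the adaptors and kinases, Pik3cb, a catalytic subunit of PI3 kinase, read 0.35 and 0.48 in the knockout and 1.29, 0.83 and 1.02 in the heterozygous group, whose mean of 1.05 had a limma adjusted p of 0.238. The adaptor Shc1 lay below the pool in the knockout, at -1.15 and -1.49, and read 0.13, -0.73 and -0.85 in the heterozygous group. Irs4, a relative of Irs1, read -2.73 and -2.86 in the knockout, and -1.48, -1.49 and 2.07 in the heterozygous group, so that heterozygous array 3 stood apart. The adaptor Sh2b2 was below the pool on every array, at -0.33 and -2.04, then -2.10, -0.10 and -1.66. The kinase gene Sgk1 read 0.97 and 0.65 in the knockout and -1.55, 0.25 and -1.20 in the heterozygous group. Foxo1, a transcription factor restrained by AKT, read 0.14 and 3.75 on the knockout arrays, so that its difference of -2.37 rests on knockout array 2. The limma adjusted p of these genes was between 0.140 and 0.584 in the comparisons where they ranked.

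Several members are known to be expressed by stromal, mesothelial and endothelial cells, so the markers of these cells are given beside them. In bulk spleen, fewer cells of a type and less RNA per cell cannot be told apart. Of 14 fibroblast and matrix genes listed, 13 were measured. Their median was 0.10 and -0.03 in the knockout and -1.53, -1.53 and -1.27 on heterozygous arrays 1, 2 and 3. For 11 of these 13 all heterozygous arrays lay below both knockout arrays, where 13.8% of all genes did so. On knockout arrays 1 and 2, 7 and 6 of the 13 lay above the pool. The highest there was Pdgfra, a platelet-derived growth factor receptor gene of fibroblasts, at 2.87 and 3.04. It read -0.14, -1.01 and -1.11 in the heterozygous group. The lowest by knockout mean was Col3a1, at -2.66 and -1.21. It read -1.53, -2.60 and -1.17 in the heterozygous group. The 5 mesothelial markers measured of 6 listed had medians of -0.71 and -0.04, then -1.96, -2.31 and -1.19. The 6 endothelial markers had medians of 0.83 and 1.29, then 0.91, -0.06 and -0.05. Limma called 3 of the 13 fibroblast and matrix genes, Ogn, Mgp and Eln, lower than the pool in the heterozygous group. It also called 1 of the 5 mesothelial genes, Lrrn4, and 0 of the 6 endothelial ones. Each called gene had a limma adjusted p of 0.0485, as Igfbp6 did, and 0.178% of all genes were called lower. These calls lie as close to the threshold as that of Igfbp6. With robust eBayes or with single probes, 0 genes were called in that comparison.

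For 4 of the 6 endothelial genes, and 3 of the 5 mesothelial ones, all heterozygous arrays lay below both knockout arrays, against 13.8% of all genes. The 4 macrophage markers measured of 8 had medians of 1.41 and 1.08 in the knockout and 0.00, 0.48 and -0.45 in the heterozygous group. The 6 neutrophil markers had medians of 2.85 and 1.53, then 0.24, 0.42 and -0.36. All heterozygous arrays lay below both knockout arrays for 3 of the 4 macrophage and 5 of the 6 neutrophil markers as well. The 3 liver genes Alb, Apoa1 and Ttr had medians of -2.03 and -1.47 in the knockout and 0.52, -3.60 and 1.90 in the heterozygous group. The 5 B cell markers had a median difference between the groups of 0.39 and the 4 T cell markers one of 0.14, and the groups overlapped for all 9. The erythroid and exocrine pancreas lists ran the opposite way to most members and the same way as Igfbp2. The 4 erythroid markers measured of 6 had medians of -4.37 and -3.92 in the knockout and -1.26, -1.24 and 1.85 in the heterozygous group. The 2 exocrine pancreas markers measured of 6 had medians of -4.02 and -3.27, then 1.87, -0.13 and -1.03. All heterozygous arrays lay above both knockout arrays for 3 of the 4 erythroid and 2 of the 2 pancreas markers, against 14.4% of all genes. The 2 adipocyte markers measured of 5 had medians of -1.36 and -0.76, then -0.03, -1.63 and -2.37. Their differences between the groups were 0.16 for Adipoq and -0.74 for Fabp4. The part of any of these cells in the members' values was not tested.

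**Figure D4:**
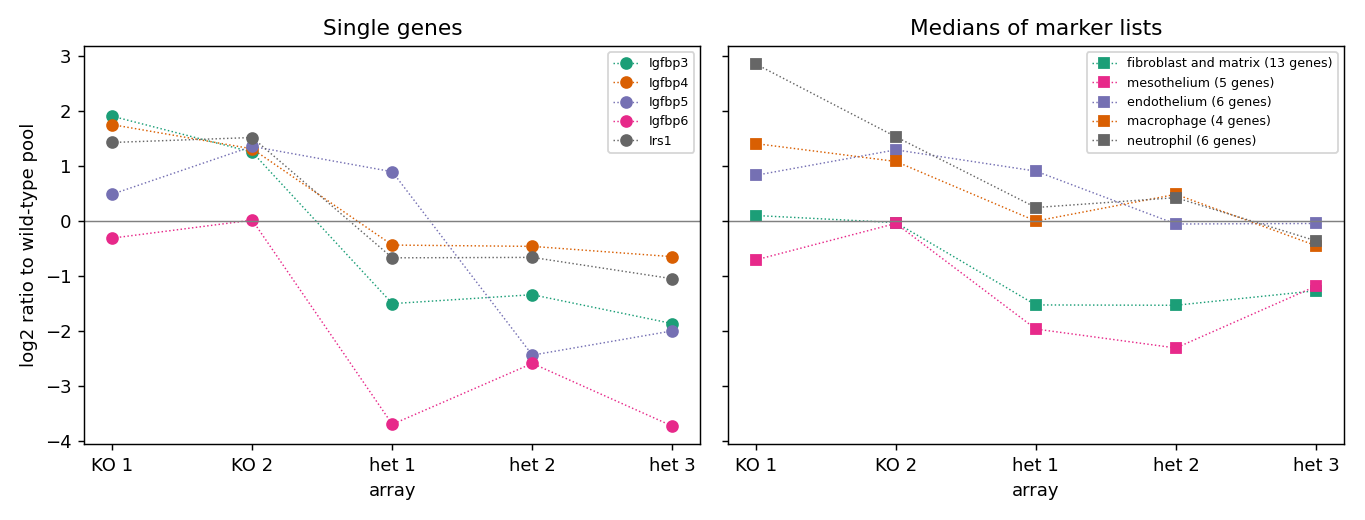
Log2 ratio to the pool (vertical axis) on each array (horizontal axis) for Igfbp3, Igfbp4, Igfbp5, Igfbp6 and Irs1 (left) and as the median of 5 marker lists (right); thin dotted lines only join the values of a gene or list. The fibroblast and matrix median lies at 0.10 and -0.03 on the knockout arrays and at -1.53 to -1.27 on the heterozygous arrays.

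The genes whose pattern was most like that of a member were found by the root mean square difference in log2 ratio over the 5 arrays. For Igfbp6 the nearest were Lrrn4 (0.30), Mgp (0.70) and Eva1a (0.74), of which Lrrn4 is in the mesothelial and Mgp in the matrix marker list. Lrrn4 read -0.60 and -0.04 in the knockout and -3.71, -2.38 and -4.29 on heterozygous arrays 1, 2 and 3, close to Igfbp6 on each. For Igfbp3 the nearest were Tril (0.16), Cdkn1c (0.32) and Bves (0.39). For Igfbp4 they were Plekha6 (0.11), Cxcl12 (0.23) and Shisa2 (0.26), and for Irs1 Nectin3 (0.17), Cxcl12 (0.19) and Aebp1 (0.19). Cxcl12, a chemokine made by stromal cells, thus stood near both. Irs1 and Igfbp4 were also close to each other, at 0.28, which made Irs1 number 6 among all genes nearest to Igfbp4.

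Ghr was nearest to Antxr1 (0.21), Acvr2b (0.26) and Calcoco1 (0.29), and Socs2 to Snx24 (0.15), Axl (0.18) and Niban2 (0.19). Ghr and Socs2 stood 0.51 apart, which made Ghr number 160 among all genes nearest to Socs2. The member nearest to Ghr was Igfbp4 (0.47). Igf1 was nearest to Aifm2 (0.18), Fcna (0.18) and Nme7 (0.19), and Igf1r to Slc48a1 (0.16), Med13l (0.17) and Mbp (0.21). Igfbp5 was nearest to Mtmr11 (0.47), Ldb2 (0.63) and Etl4 (0.69). Igfbp2 had no gene within 0.95: its nearest were Cldn10 (0.95), Ncapg2 (0.99) and the interferon-induced Oas1g (1.01), and its nearest member, Igf1, stood 2.32 away. The ligand Igf1 and its receptor Igf1r stood 1.05 apart, and Igf1r was number 2710 among all genes nearest to Igf1.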

How the data were processed

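The members and gene lists were chosen with earlier results of these data known. The deposited table holds 1 value per spot and array, which was read as a log2 ratio of Cy5 over Cy3. The sources used here do not state the authors' normalization, spot filter, log base or direction. Per the labels, RNA was extracted with TRIzol, and 15 ug of amplified RNA were labelled per dye. Of 38784 spots, 17744 had a value on all arrays, and 19768 to 22871 on a single array. The annotation gave 1 gene for 22204 probes, several for 0 and none here for 16580. Deposited column medians lay between -0.039 and 0.004.

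Each array was centred on its median, probes of a gene were averaged, and the 9000 genes measured on all 5 arrays were fitted with limma 3.58.1 in R 4.3.3 (lmFit, eBayes) with a mean per group (residual degrees of freedom 3, prior 3.63). Tests were 2-sided, with Benjamini-Hochberg adjustment at 0.05 over all genes. The 95% intervals and SEs are limma's moderated ones, in which both groups share their spread. Groups come from the labels of the Cy5 channel. The fit was also run on simulated data with independent errors and changes planted only in the heterozygous arrays. That run did not cover the spread of the pool. No dim-probe filter was possible on ratios alone. The text names all 10 members, up to 6 further pathway genes per comparison by absolute moderated t, and the 3 genes nearest to each member. Alternatives were no centring, quantile normalization, equal median absolute deviation, a filter asking for 2 arrays per group, single probes, the median over probes, robust eBayes, only the group's arrays, a replicate block, and leaving out each array. Promoter windows are RefSeq's on GRCm38.p6. Figures were drawn with matplotlib 3.10.9.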

Additional observations from a re-analysis of the deposited data

How the results depend on the processing

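Every difference between the groups kept its direction for 9 of the 10 genes under all alternatives run. The exception was Igf1r, which turned to 0.12 without the library labelled heterozygous 1 and ranged from -0.86 to 0.12 over the arrays left out. Against the pool, leaving out 1 array at a time gave -0.64 to 0.34 for Igf1r, -0.16 to 0.23 for Socs2 and -0.35 to 0.050 for Ghr in the heterozygous group, and -0.31 to 0.015 for Igfbp6 in the knockout. Socs2 in the heterozygous group also turned from 0.005 to -0.011 as deposited. The Igfbp6 call in the heterozygous group also ended with equal median absolute deviation (2 genes called in all, 0 members), with genes measured on at least 2 arrays of each group, with single probes, with the group's arrays alone and with robust eBayes (0 genes and 0 members each), at adjusted p between 0.0505 and 0.0964. As deposited, 5 genes were called, 0 higher and 5 lower, against 13 higher and 16 lower after centring. With each array left out in turn, 0 to 3 genes and 0 members were called in that comparison, and 0 in the others. The counts of members whose groups did not overlap were 7 below and 1 above (Igfbp2) with any 1 array left out, an alternative added after the data were seen, where 17.4% to 23.9% and 20.8% to 28.8% of all genes met the conditions. The seventh gene was Igfbp5, Igf1 or Igf1r, depending on the array. In the knockout, the group's arrays alone gave 3321 genes and 7 members, from a spread of 2 arrays. With the replicate number as a block, 101, 215 and 42 genes were called in the knockout, the heterozygous group and the difference, and 1 member in each (Igfbp2, Igfbp6 and Igfbp2). The same-numbered samples share only a number: their deviations from the group means correlated across genes at -0.41 and -0.40. Without spot intensities, signal over background could not be judged.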
